A study of Mus musculus with 753 samples.

Results

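Malat1, Neat1, Rn45s and Rn18s are 4 non-coding RNAs among the 25001 genes of a deposited table of single mouse keratinocytes, and their levels were followed in the 684 cells that the study annotated. They were picked by name with earlier results of these data known, among them that Rn45s and Rn18s led a group of cells, so their levels by cluster are given as a description. The comparisons below ask how each RNA differed between wounded and unwounded skin and between lineages, and how it varied with the deposited cell groups and with the number of genes detected in a cell.

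All cells came from the epidermis of adult mice labelled Gata6EFGPCreERT2 Rosa26-fl/STOP/fl-tdTomato with the genotype Cre (+/-) tdTomato (+/-). The mice received 4-hydroxytamoxifen on the back skin, which switches on tdTomato in cells that use the Gata6 promoter at that time and in their progeny. Lin+ cells are tdTomato-positive and lin- cells are tdTomato-negative, so lin- cells include any Gata6 lineage cell that escaped labelling. Skin was unwounded (day 0) or taken from a wound 6, 9 or 11 days after injury. CD45-negative cells were sorted singly into wells and made into Smart-seq2 libraries, which carry no molecular identifiers. Samples were mixed with carrier epidermal cells of a GFP mouse, which were then sorted away. Replicate 1 of days 0, 9 and 11 formed the first batch, and replicate 2 of the same days formed the second batch together with day 6. Each replicate of days 9 and 11 came from a single mouse, whereas the day 6 cells came from several mice and their labels give no replicate. The unwounded skin came from mice that also gave wounds, so the days are not from independent animals.

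Malat1 and Neat1 are long non-coding RNAs that stay in the nucleus, where Malat1 gathers in nuclear speckles and Neat1 builds paraspeckles. Rn45s is the long precursor that RNA polymerase I transcribes in the nucleolus, and Rn18s is the small-subunit ribosomal RNA that is cut out of it. Mature ribosomal RNA and the processed end of Malat1 carry no ordinary poly(A) tail, and Smart-seq2 primes reverse transcription with oligo(dT).

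The 30 bases of Malat1 below are shown because they hold its longest run of A, the kind of sequence with which an oligo(dT) primer can pair. They lie in the single exon of transcript Malat1-201 at chr19:5795979-5796008 of GRCm38, on the minus strand, at bases 6665 to 6694 of 6983. The run, in capitals, has 12 A and ends 298 bases before the 3′ end of the annotated transcript. Where the processed end lies relative to the run was not examined.
Malat1 internal A run: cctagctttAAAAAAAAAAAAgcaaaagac
It was the only run of at least 8 A in Malat1-201, and Neat1-201, at chr19:5824708-5845478 on the same strand, held none in 20771 bases. Of 9101 lincRNA transcripts in the GENCODE vM21 reference, 13.5% held such a run on the transcribed strand. These matches are descriptions, and priming at the run was not tested.

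The sets compared were the 14 combinations of 7 mouse sets and 2 lineages, with 26 to 93 cells each. Total reads had a median of 4610719 per cell in the first batch (222 cells) and 2765102 in the second (462 cells), and 4 cells had fewer than 200 genes detected. At least 1 of Krt5 and Krt14, keratins of basal keratinocytes, was found in 653 of the 684 cells, and Ptprc, which encodes CD45, was found in 12. All 684 cell names were distinct. The first batch was deposited as counts and the second as RPKM, so a level below is the value in parts per 1000000 of the cell's total (ppm) and is compared only within a batch or with batch as a term in the fit. A level is a share of the cell's RNA, so a lower level and a larger amount of other RNA cannot be told apart.

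Malat1 fell in wounds in both lineages, and its set means were lower in both batches. In lin+ cells of the first batch its mean level was 10107 ppm on day 0, 1562 on day 9 and 1204 on day 11. In lin+ cells of the second batch it was 24780 on day 0, 7232 on day 6, 7374 on day 9 and 5098 on day 11. Every lin+ wound set lay below the day 0 set of its batch.

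Lin- cells gave the same order between day 0 and wounds. Their first-batch means were 6641 ppm on day 0, 1623 on day 9 and 1587 on day 11. Their second-batch means were 27925 on day 0, 5535 on day 6, 7299 on day 9 and 10845 on day 11. The day 0 set was thus the highest lin- set of its batch, with the nearest wound set being day 11 in the second batch.

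**Figure D1:**
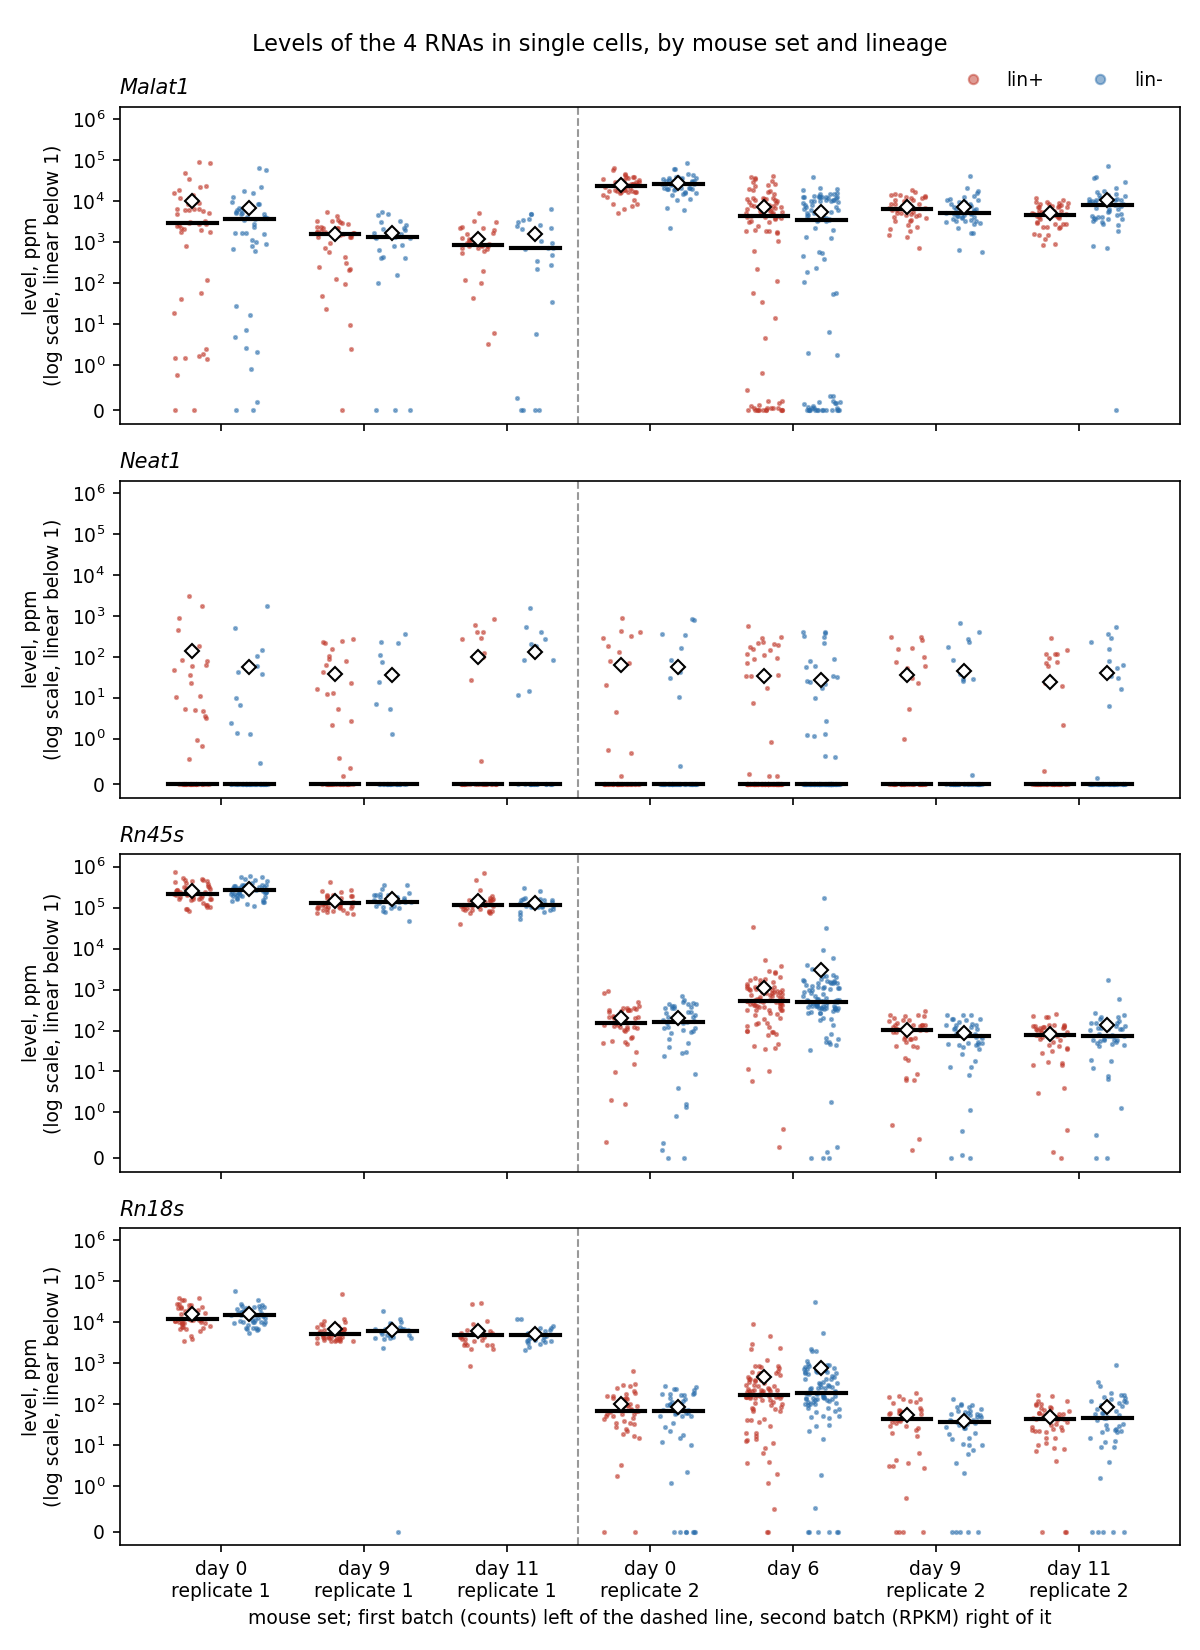
Level in ppm of Malat1, Neat1, Rn45s and Rn18s in each cell (dots; log axis, linear below 1), by mouse set, with lin+ in red and lin- in blue; black bars are medians and diamonds means over cells. Malat1 sits higher on day 0 than in wounds in both batches, the median of Neat1 is 0 in every set, and Rn45s and Rn18s differ by orders of magnitude between the batches.

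Across 14 sets, limma gave a log2 fold change of -2.57 (SE 0.27, 95% confidence interval -3.15 to -1.998) for Malat1 in lin+ cells at days 9 and 11 against day 0, a 5.96-fold lower level (adjusted p = 0.00338, Benjamini-Hochberg over 10488 genes). These fits compare means over cells, and the lin+ day 0 replicate 1 mean of 10107 stands beside a median of 2931 ppm and a highest cell of 92354. With the mean of log2 values over cells in place of the mean level, the lin+ change was smaller, -1.43 (limma adjusted p = 0.0362). In lin- cells the log2 fold change was -2.03 (SE 0.27, 95% confidence interval -2.61 to -1.46), a 4.09-fold lower level (limma adjusted p = 0.0186). Malat1 was the 1 RNA of the 4 that was called in each lineage, where 0.0953% and 0.191% of all genes tested passed. Malat1 had the smallest p of all genes in lin+ cells and was the only gene called lower there (0.00953% of genes), and in lin- cells it was 1 of 4 called lower (0.0381%). The median log2 fold change of all genes was 0.15 in lin+ and 0.10 in lin- cells. The change in lin+ cells minus that in lin- cells was -0.54 (95% confidence interval -1.36 to 0.27; limma adjusted p = 0.789).

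Within the first batch alone the log2 difference in Malat1 was -3.04 in lin+ and -2.22 in lin- cells, and within the second batch it was -2.11 and -1.84. Leaving out 1 mouse set ended the lin+ call for day 0 replicate 1 (log2 fold change -2.07, limma adjusted p = 0.0666), day 9 replicate 1 (-2.52, adjusted p = 0.0866) and day 9 replicate 2 (-2.63, adjusted p = 0.0807). In lin- cells the call ended without any one of day 9 replicate 1 (-2.04, limma adjusted p = 0.195), day 9 replicate 2 (-2.03, 0.208), day 11 replicate 1 (-1.82, 0.139) and day 11 replicate 2 (-2.24, 0.108). edgeR's quasi-likelihood test on reads kept both calls (adjusted p = 0.0269 and 0.0176), and DESeq2 on the same reads kept neither (adjusted p = 0.467 and 0.483). The fold changes were below 0 in 22 of 22 alternatives for each lineage. Of these, 14 kept the call in lin+ cells, 6 lost it and 2 (a single batch each) allowed no test, and in lin- cells 12 kept it, 8 lost it and 2 allowed no test. Day 0 cells of each batch also have a first number in their deposited names that no wound cell shares, whose meaning the files do not state, so wounding and whatever that number stands for cannot be told apart.

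**Figure D2:**
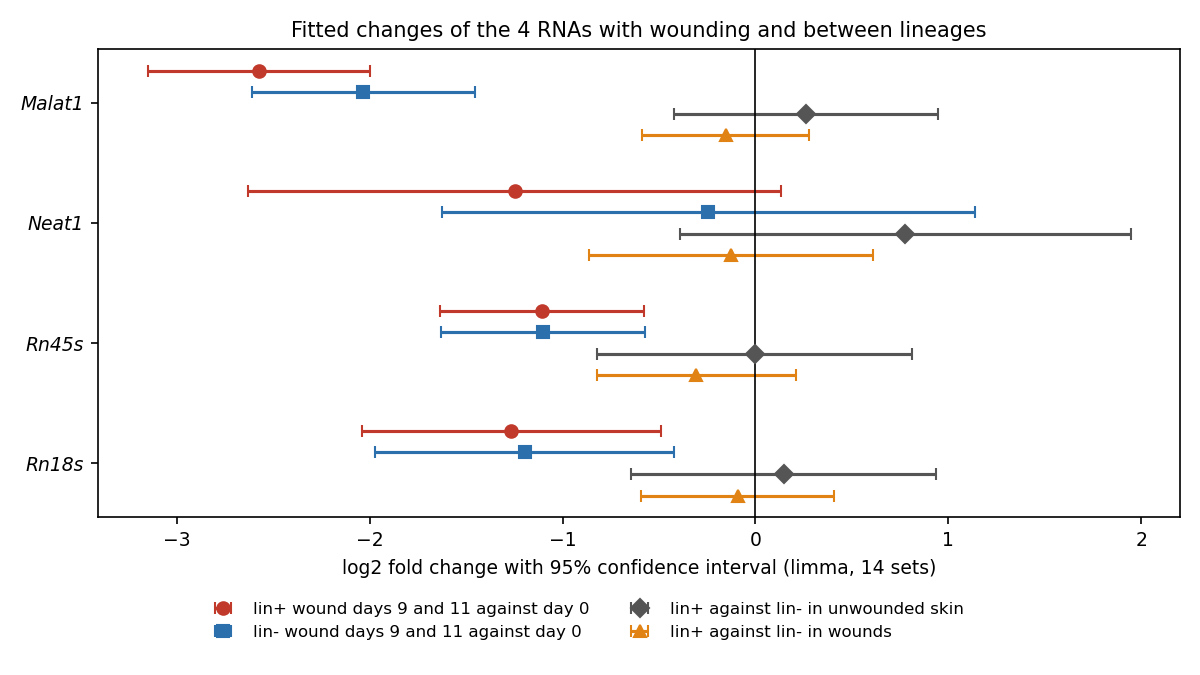
Fitted log2 fold changes of the 4 RNAs with 95% confidence intervals (limma, 14 sets), for wound days 9 and 11 against day 0 in lin+ (red) and lin- (blue) cells and for lin+ against lin- cells in unwounded skin (grey) and wounds (orange). Both wound changes of Malat1 (-2.57 and -2.03) have intervals far from 0, and all 8 lineage intervals include 0.

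Wound cells had more genes detected than unwounded cells. The median was 1786 genes in unwounded and 2884 in wound cells of the first batch, and 2067 and 2736 in the second. Malat1 was therefore compared in cells with like numbers of genes detected. From 1000 to under 2000 genes, its median was 6077 ppm in 48 unwounded cells and 467 in 28 wound cells of the first batch, and 26083 in 41 and 5217 in 62 cells of the second. From 2000 to under 3000 genes, the medians were 3028 and 1650 in the first batch and 25895 and 6586 in the second. From 3000 to under 4000 genes they were 1626 in 5 cells and 1083 in 37 cells of the first batch, and 21905 and 5173 in the second. The median was lower in wounds in 6 of these 6 comparisons.

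The fit over sets gave the same direction with cells chosen in these ways. From cells with at least 1000 genes the log2 fold changes of Malat1 were -2.60 in lin+ (limma adjusted p = 0.00155) and -2.12 in lin- cells (0.00741). From cells with 1500 to 3000 genes, a choice made after seeing the data, they were -2.50 (0.0122) and -1.80 (0.109), so the lin- call was lost. From cells that the study named IFE-B, basal cells of the interfollicular epidermis, they were -2.80 (0.0292) and -2.30 (0.0432).

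**Figure D3:**
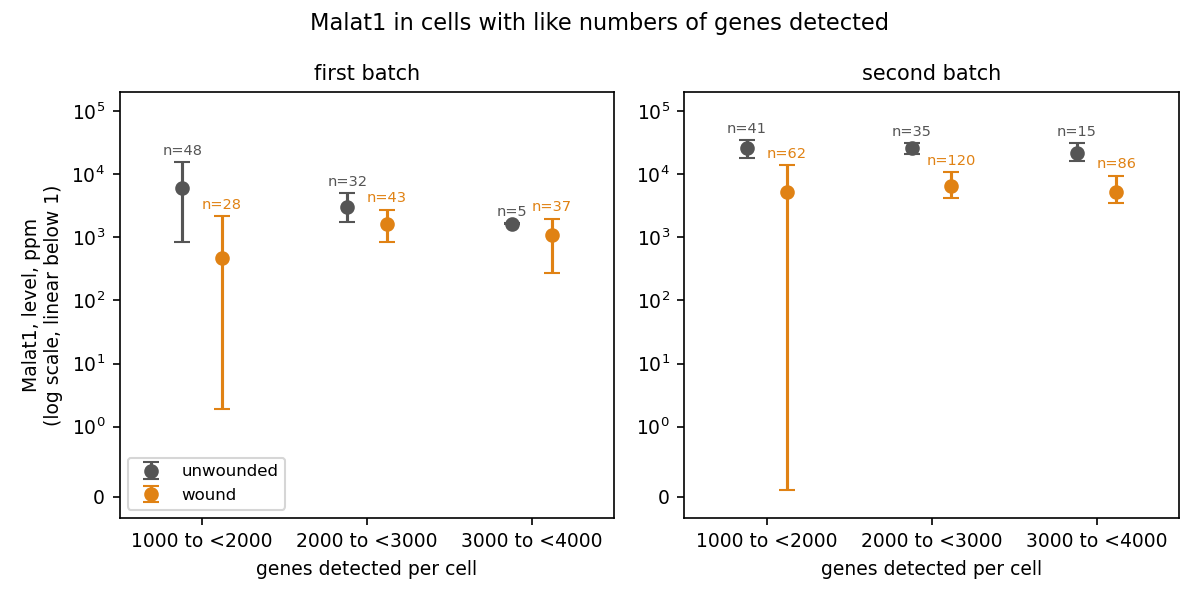
Malat1 level in ppm (log axis, linear below 1) in unwounded (grey) and wound (orange) cells within 3 bands of genes detected; points are medians, bars quartiles and n the number of cells. The wound median is the lower of each pair, with the narrowest gap in the first batch above 2000 genes (3028 against 1650, and 1626 against 1083).

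Malat1 was also near 0 in some cells. Levels under 100 ppm, a limit set after seeing the data, were found in 102 cells, and 14 cells lay between 50 and 200 ppm. In the first batch these were 42 of 222 cells (18.9%, exact binomial 95% confidence interval 14.0 to 24.7), present in every set. The second batch had 60 of 462 cells, of which 59 were day 6 cells. On day 6, 27 of 93 lin+ cells (29.0%) and 32 of 93 lin- cells (34.4%) were low. On day 0 of the second batch 0 of 46 lin+ and 0 of 48 lin- cells were low (exact upper limits 7.71% and 7.40%), on day 9 none was low in either lineage (8.04% for each 44 cells), and the 1 remaining low cell, of lin- day 11 replicate 2, had 5 reads in all. Intervals here cover counting error over cells only.

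The low cells had fewer genes detected. Their median was 1521 genes against 2506 in the other cells of the first batch, and 962 against 2760 in the second. Depth differed less, with a median of 3885067 reads against 4847110 in the first batch and 2584453 against 2802897 in the second. Krt14 was found in 37 of 42 low cells in the first batch and in 39 of 60 in the second. Son, which encodes a scaffold protein of nuclear speckles, was found in 15 of 42 and 18 of 60 low cells, against 170 of 180 and 389 of 402 other cells. Whether the fewer genes and the low Malat1 share a source was not tested.

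Neat1 was sparse. It was detected in 37.8% of first-batch cells (84 of 222) and 26.8% of second-batch cells (124 of 462), and its median was 0 in every set. In cells thinned to 500000 reads the shares were 36.4% and 25.8%, so depth changed them little. The 23 and 47 cells with the highest values held 85.4% and 84.0% of the summed Neat1 level of the batches, so a set's mean rests on few cells. These values cover all transcripts counted under Neat1, over a counted length of 3177 bases, and do not separate its short and long isoforms.

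By set, Neat1 in lin+ cells of the first batch had means of 142 ppm on day 0, 37.2 on day 9 and 96.6 on day 11. The second-batch lin+ means were 61.8 on day 0, 33.0 on day 6, 36.4 on day 9 and 24.7 on day 11. The lin- means were 56.5, 36.3 and 129 on days 0, 9 and 11 of the first batch. For the second batch they were 55.5, 26.7, 43.8 and 39.3 on days 0, 6, 9 and 11. Only in lin- cells of the first batch did a wound set, day 11, lie above day 0. Without its highest cell, the mean fell to 80.1 in lin+ and 19.7 in lin- day 0 replicate 1 and to 71.2 in lin- day 11 replicate 1, so 1 cell moved each of these means by over 1.5 times. The log2 fold change at days 9 and 11 against day 0 was -1.25 (SE 0.64) in lin+ and -0.25 (SE 0.64) in lin- cells, and neither passed in limma (adjusted p = 0.541 and 0.896). Their confidence intervals were -2.63 to 0.13 and -1.63 to 1.14, and the first still holds a change as large as that of Malat1 in lin+ cells.

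Rn45s took a very different share of the reads in the batches. In the first batch its median share was 16.0% of a cell's reads and every cell held it, whereas in the second it was 0.0552%. Rn18s had median shares of 0.703% and 0.00420%. Malat1 went the other way, with 0.161% and 2.98%. These are shares of reads in both batches, with reads recovered from RPKM in the second. Replicate changes together with whatever else differs between the batches, so what sets these shares cannot be told apart. Rn45s and Rn18s overlap in sequence and come from repeated genes, and counting of reads that fit several places can split or drop them, so their levels are uncertain.

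Within the first batch, Rn45s was lower in wounds than on day 0. Its lin+ means were 259510 ppm on day 0, 142436 on day 9 and 148410 on day 11, and its lin- means were 286954, 163943 and 130781. Both wound sets lay below the day 0 set in each lineage. In the second batch the lin+ means were 205 on day 0, 1108 on day 6, 103 on day 9 and 84.5 on day 11, and the lin- means were 199, 3024, 87.4 and 135. Days 9 and 11 were again below day 0, and day 6 was above it. The lin- day 6 mean rests on 1 cell of 168978 ppm, and without that cell it was 1220.

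Rn18s was likewise below day 0 at days 9 and 11, and above it on day 6, in each lineage and batch measured. In the first batch its lin+ means were 15686, 6724 and 6310 ppm on days 0, 9 and 11, and its lin- means were 16185, 6509 and 5248. Its second-batch lin+ means were 104, 452, 53.3 and 49.1 on days 0, 6, 9 and 11, and the lin- means were 87.6, 750, 40.0 and 87.2. The lin- day 11 mean thus lay within 1 ppm of day 0. The lin- day 6 mean was 413 without its highest cell.

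At days 9 and 11 against day 0, Rn45s had a log2 fold change of -1.11 (SE 0.24) in lin+ and -1.10 (SE 0.24) in lin- cells. Neither passed in limma after adjustment (adjusted p = 0.132 and 0.128), with unadjusted p-values from the same limma fit of 0.000603 and 0.000637. Rn18s had -1.27 (SE 0.36) and -1.20 (SE 0.36), and neither passed (limma adjusted p = 0.276 and 0.196). All 4 values were below 0 in 22 of 22 alternatives. Within the first batch the Rn45s differences were -0.998 in lin+ and -1.14 in lin- cells, and within the second -1.22 and -1.06. For Rn18s they were -1.43 and -1.64 in the first batch and -1.10 and -0.75 in the second. Day 6, which the fit does not average with days 9 and 11, stood apart with a median Rn45s of 524 ppm in lin+ and 500 in lin- cells, against 74.6 to 158 in the other second-batch sets. Day 6 cells have a first number in their names that no other cell shares, so the day and that number cannot be told apart.

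Together the 4 RNAs took a median of 25.8% of a cell's reads in unwounded and 13.4% in wound cells of the first batch. The second-batch medians were 9.38% and 2.45% of reads. The first-batch share is mostly Rn45s and the second-batch share mostly Malat1. Scaling each cell to its total without the 4 RNAs left the Malat1 log2 fold changes at -2.50 in lin+ and -1.97 in lin- cells.

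No difference between lineages in the 4 RNAs passed the test. In unwounded skin the lin+ against lin- log2 fold changes were 0.26 for Malat1 (95% confidence interval -0.42 to 0.94), 0.78 for Neat1 (-0.39 to 1.94), -0.0044 for Rn45s (-0.82 to 0.81) and 0.15 for Rn18s (-0.65 to 0.94). None of the 4 was called by limma, where 0.41% of genes passed. In wounds they were -0.15 for Malat1 (-0.59 to 0.28), -0.13 for Neat1 (-0.87 to 0.61), -0.31 for Rn45s (-0.82 to 0.21) and -0.09 for Rn18s (-0.59 to 0.41), again with none of the 4 called, where 0.267% of genes passed. The signs of 7 of these 8 values turned in at least 1 alternative. In the same fits Krt79 and Cst6, which mark the infundibulum and duct region from which the Gata6 lineage comes, were called higher in lin+ cells in both states of the skin.

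Medians over the cells of each of the 7 mouse sets gave single values for each lineage. Genes detected per cell differed by 120 ± 322 (lin+ minus lin-, SD, n = 7; exact paired permutation test, two-sided, p = 0.484). The summed share of the 4 RNAs differed by -1.08 ± 1.78 percentage points and was lower in lin+ cells in 5 of 7 sets (exact permutation p = 0.0625, adjusted p = 0.25 over 4 values). This mean joins shares of reads in the first batch with shares of summed RPKM in the second. As shares of reads in both batches, an alternative chosen after seeing the data, the difference was -1.20 ± 1.84 points (n = 7), lower in lin+ cells in 6 of 7 sets (exact permutation p = 0.109, adjusted p = 0.4375). The log2 ratio of Rn18s to Rn45s differed by -0.01 ± 0.16 (exact permutation p = 0.891), and that of Malat1 to Neat1 by 0.04 ± 1.77 (exact permutation p = 1). Both ratios were taken per cell after adding 1 to each level. Neat1 was undetected in most cells of every set, and in those cells the Malat1 to Neat1 value holds Malat1 alone. The smallest p that 7 pairs allow is 0.0156. Without day 0 replicate 1 the summed share differed by -0.453 points, and without day 11 replicate 1 the Malat1 to Neat1 ratio differed by -0.59 (exact permutation p = 0.0312, the smallest that 6 pairs allow, and 0.125 adjusted over 4 values).

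The deposited clusters differed most in cluster 2. This cluster of 146 cells had a median of 1347 genes detected, the lowest of the 6 clusters. In it Rn45s had a median of 318436 ppm in the first batch and 395 in the second, above the other clusters, which spanned 112545 to 207091 and 126 to 286. Rn18s had 19518 and 134, against 5228 to 9945 and 61.8 to 118. Malat1 had the lowest medians there, 29.1 and 56.9, against 1229 to 3466 and 5040 to 19492. These medians pool all days. In unwounded second-batch cells cluster 2 had the lowest medians of Rn45s (83.0, against 149 to 212) and Rn18s (41.1, against 54.0 to 96.1). In second-batch wound cells it had Rn45s at 521, below cluster 4 (549), and the highest Rn18s, 207. In the first batch both medians were highest in unwounded cells. In wound cells Rn45s was highest (178963), whereas Rn18s (6231) was below clusters 1 (6603) and 5 (6752).

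Cluster 2 was mixed in Malat1, since its means were 7446 and 9982 ppm. It held 27 of the 42 low cells of the first batch and 50 of the 60 of the second. Its 24 unwounded second-batch cells had a median Malat1 of 21555, above cluster 0 (18690) and below the other clusters. Its 74 second-batch wound cells had a median of 0.195. With all days pooled, Neat1 was detected in 12.5% and 6.1% of its cells, below every other cluster of the batch. Among unwounded second-batch cells the share in cluster 2 (12.5%) was above that in cluster 1 (7.14%) and below the other clusters. By day, cluster 2 held 58 cells of day 0, 70 of day 6, 11 of day 9 and 7 of day 11. Without it, the Malat1 log2 fold changes between days 9 and 11 and day 0 were -2.31 in lin+ (limma adjusted p = 0.000707) and -1.98 in lin- cells (0.00365), an alternative chosen after seeing the data.

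**Figure D4:**
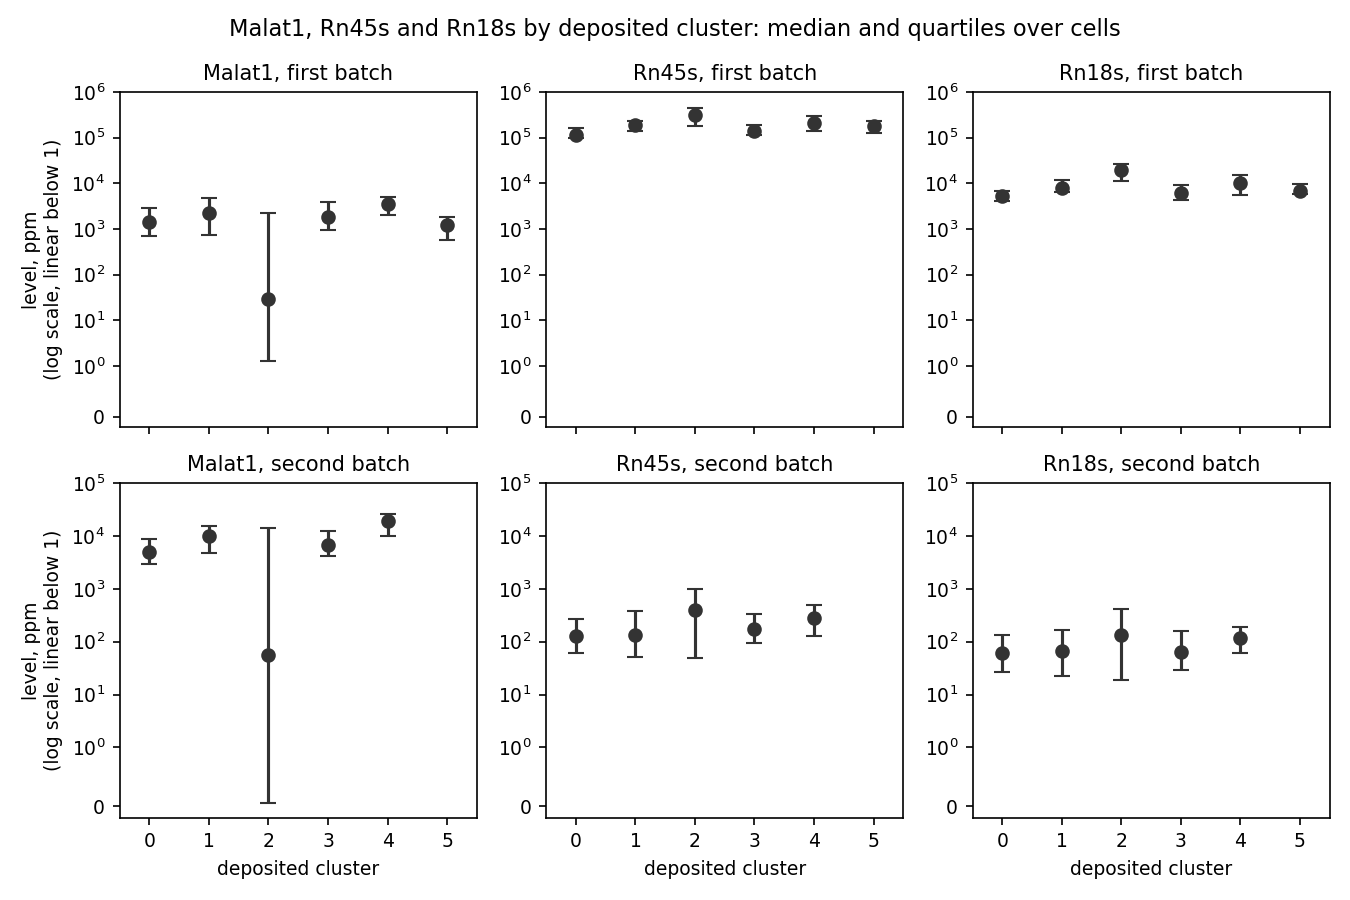
Level in ppm of Malat1, Rn45s and Rn18s (log axis, linear below 1) by deposited cluster, with the first batch above and the second below; points are medians and bars quartiles over cells. With all days pooled, cluster 2 has the lowest Malat1 median (29.1 and 56.9) and the highest Rn45s median (318436 and 395). Cluster 5 has cells of the first batch only.

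Cluster 4, all of whose 64 cells were named IFE-B, had the highest Malat1 medians over all days, 3466 ppm in the first batch and 19492 in the second. Of its cells, 37 were from day 0. Among unwounded first-batch cells its median of 3871 was below clusters 0 (6145) and 3 (4515). Among unwounded second-batch cells its 26084 was below clusters 1 (28533) and 3 (26313). In wound cells it was highest in the second batch (9953) but below cluster 1 in the first (1846 against 1930). Within clusters, the median of Malat1 was lower in wound than in unwounded cells in 9 of 11 comparisons of a cluster and batch. The exceptions were clusters 2 and 5 of the first batch, and the mean was lower in 11 of 11. Among the deposited identities IFE-B, OB and uHF-I, the Malat1 median was lower in wounds in 6 of 6 comparisons. For IFE-B it was 2665 in unwounded and 1229 in wound cells of the first batch, and 22734 and 3882 in the second. These counts are descriptions, since the clusters and identities were made from the same cells.

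The members were also set against the number of genes detected. Over the 222 first-batch cells, Spearman's correlation with genes detected was -0.36 for Rn45s and -0.46 for Rn18s, and over the 462 second-batch cells it was -0.15 and -0.13. Within sets of the first batch the values were below 0 in 5 of 6 sets for Rn45s and in 6 of 6 for Rn18s. Within sets of the second batch they were more often above 0, in 5 of 8 sets for Rn45s (-0.18 to 0.36) and in 6 of 8 for Rn18s (-0.16 to 0.43), with both day 6 sets below 0. For Neat1 it was 0.19 and 0.23. For Malat1 it was -0.04 and -0.02, which joined opposite relations within sets. Across the 14 sets it ran from -0.62 in lin+ day 9 replicate 2 to 0.52 in lin- day 6, with 9 sets below 0. In day 6 cells, where the low cells lie, it was 0.35 in lin+ and 0.52 in lin- cells. The cells of a batch are not independent replicates, so these values describe the cells and carry no test.

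**Figure D5:**
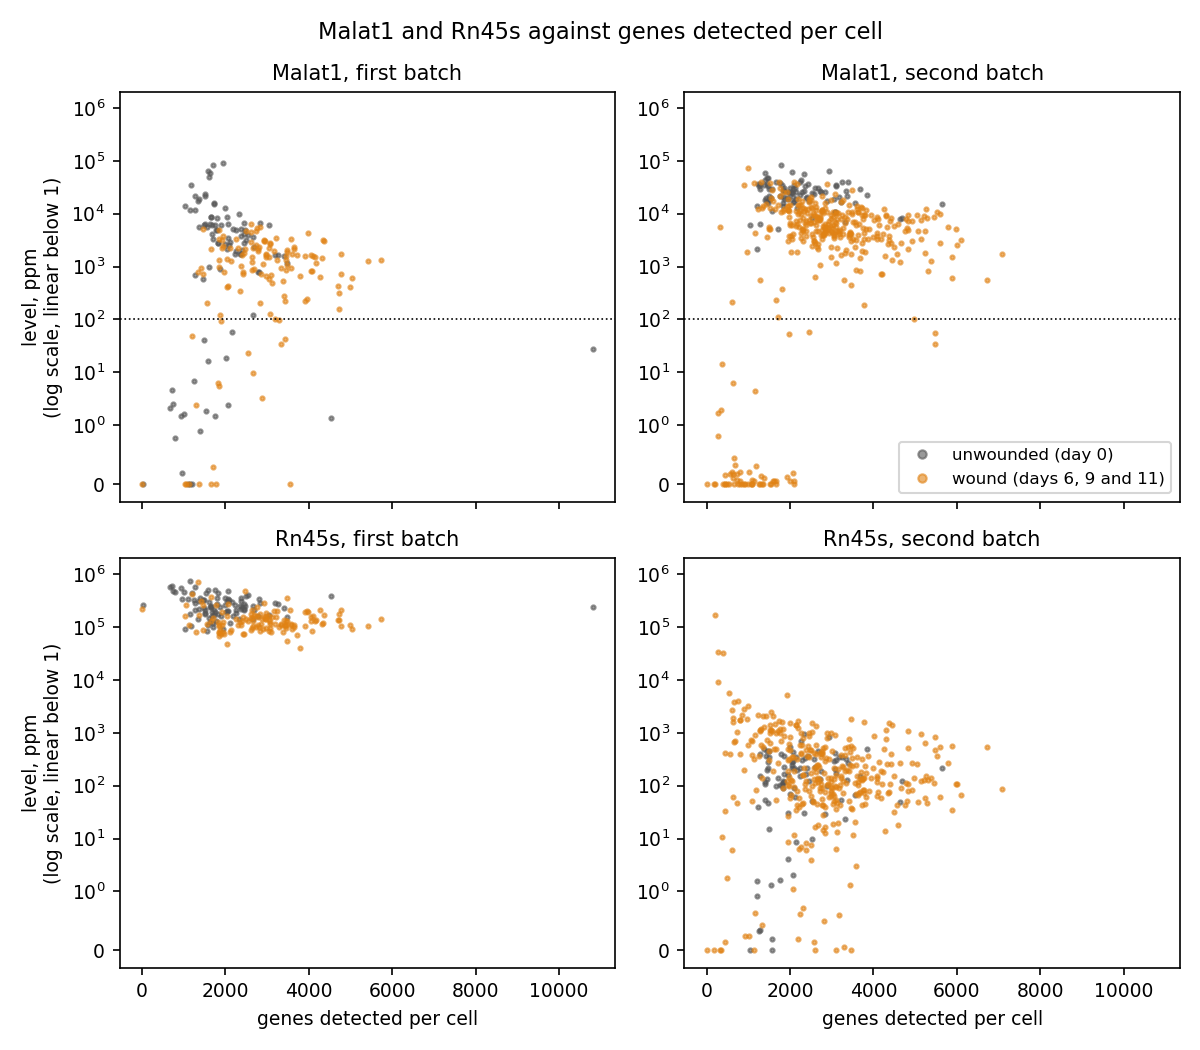
Malat1 (above) and Rn45s (below) in level in ppm (log axis, linear below 1) against genes detected, one dot per cell, with the first batch left and the second right, unwounded cells in grey and wound cells in orange. The dotted line is at 100 ppm of Malat1; the second-batch cells under it are wound cells, and in the first batch they are of both states.

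Rn18s (counted length 938 bases) and Rn45s (5868 bases) overlap in sequence, so they are not independent measures. Among the 4 RNAs, Rn45s and Rn18s went together, with Spearman's correlations of 0.87 over the first-batch and 0.91 over the second-batch cells. Malat1 and Neat1 had 0.31 and 0.14. Between the nuclear and the ribosomal pair the values lay between -0.23 and 0.08. Per base of counted length, Rn18s was at 0.278 of Rn45s in the median first-batch cell and 0.442 in the median second-batch cell, and Malat1 was 18.2 and 109 times Neat1 in the cells that had Neat1.

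The genes most like each RNA were taken from 3108 genes detected in at least 20% of the cells of each batch, by the lower of the within-batch Spearman correlations over 222 and 462 cells. For Malat1 they were Son (0.54), Col17a1, a collagen of hemidesmosomes (0.40), Ahnak (0.38), Pwwp2a (0.36) and Btg1 (0.35). For Neat1 they were Cd200 (0.22), Phf20l1, Insig2, H13 and Net1, the last at 0.19. Rn45s and Rn18s shared their first 3, which were the unnamed identifiers 100502943 and 100628626 and Slfn5, with 0.29, 0.28 and 0.19 for Rn45s and 0.26, 0.25 and 0.21 for Rn18s. Gm12191 and Fgf16 came next for Rn45s (both 0.15), and Gm9182 and Gm19304 for Rn18s (0.20 and 0.17). None of these genes that could be tested passed the wound or lineage tests. Son had wound log2 fold changes of -1.34 in lin+ (limma adjusted p = 0.348) and -1.03 in lin- cells (0.366).

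Gene lists of these pathways are described by their medians. Only 0.0953% of all genes passed in lin+ and 0.191% in lin- wounds, and lists of this size would hold no call at those shares. Of 23 long non-coding RNAs listed as nuclear, 10 could be tested and 1, Malat1, was called lower in wounds of each lineage. Malat1 and Neat1 are both among the 10, so their median is not independent of the changes given above. The median log2 fold change of the 10, with Malat1 and Neat1 included, was -1.21 in lin+ and -1.03 in lin- cells. Over all genes it was 0.15 and 0.10. Of 20 genes of nuclear speckles and splicing, none was called, with medians of -0.51 and -0.46. None of 16 paraspeckle protein genes was called either, with medians of -0.14 and 0.33. For the ribosomal side, none of 13 genes of the RNA polymerase I machinery was called (medians 0.08 and 0.48), nor any of 21 genes of pre-rRNA processing (0.32 and 0.31).

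The lists bearing on cell state held no called gene in the wound comparisons, at the same background. The 18 genes of heat shock and dissociation had medians of -0.73 in lin+ and -0.25 in lin- cells, with 16 and 14 of them below 0. The 11 apoptosis genes tested had medians of 0.69 and -0.22, and the 19 cytosolic reference mRNAs tested had 0.28 and 0.41. The 5 structural RNAs without a tail that could be tested had medians of -0.28 and -0.20. None of the 28 mitochondrially encoded genes was a row of the table, so their share of reads was not analysed here.

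Markers of other cells moved in some wound sets. The summed mean of 5 melanocyte markers was 0.278 to 8.78 ppm in the 4 unwounded sets, and reached 6814 in lin- day 9 replicate 2 and 6491 in lin- day 11 replicate 2. In the other wound sets it was 0 to 491. The 8 immune markers summed to 0.0576 to 66.8 ppm in unwounded and 0 to 258 in wound sets. Mlana was at 0 in all unwounded cells of both batches and in the wound cells of the first. The part of such cells in the Malat1 change was not tested.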

How the data were processed

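Smart-seq2 libraries of single mouse keratinocytes were analysed from values that the authors deposited. Per the labels, reads were trimmed with Trimmomatic 0.27, aligned with STAR 2.2 to mm10 (GRCm38), counted with featureCounts and analysed with Seurat 3.2.2. The deposited combined table holds raw counts for the first batch and, per the values, RPKM for the second. Separate deposited tables give counts and RPKM of 241 cells, which yielded gene lengths. With these, the second-batch RPKM gave whole reads (tolerance 0.02) for 99.99% of values below 200 reads, 99.7% in the lowest cell. A deposited table of log values was not used, and 747 of its columns of per-sample values were set aside. The authors' cluster and identity labels were taken from the deposited annotation.

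Each value was divided by its cell's total and expressed in parts per 1000000, ppm (CPM for the first batch, a TPM-like share for the second). Set means were brought to a common scale in each batch (median of ratios to the batch's geometric mean), 1 was added, and log2 values were fitted with limma 3.58.1 (trend) in R 4.3.3. A gene was tested where 2 or more sets reached 10 ppm. Wound comparisons used 1 coefficient per lineage and day and batch as the replicate block. For lineage comparisons the block was the mouse set, because both lineages were sorted from the same skin. Same-set deviations from group means correlated at -0.22 on day 0, -0.01 on day 9 and -0.11 on day 11. Deviations of the replicates of a day mirror each other, so they share a value. Day 6 has 1 set per lineage and so no deviation. P-values were adjusted by Benjamini-Hochberg with a threshold of 0.05. Single values were compared by an exact paired permutation test. edgeR 4.0.16 and DESeq2 1.42.0 were run on reads as alternatives. The fit was tested on simulated data, where it recovered a minority of the changed genes, so a gene that did not pass may still differ.

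The 4 members and all gene lists were chosen with earlier results of these data known. Genes named by likeness were the 5 with the highest lower within-batch correlation, and list genes were named where they passed. Of 753 samples, 6 were blank wells. The methods state removal of cells under 200 genes, whereas 4 such cells are in the annotation and were kept in the main fits. Intervals on shares are exact binomial at 95%. The cells of a set are not replicates, and p-values measure the spread between sets.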

Additional observations from a re-analysis of the deposited data

Results flagged for a closer look

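In 1 of 7 mouse sets the log2 ratio of Malat1 to Neat1 stood apart: lin+ minus lin- was 3.88 in day 11 replicate 1, against -1.43 to -0.03 in the other 6 sets. In most cells Neat1 was undetected, and there the value, with 1 added to each level, holds Malat1 alone. In that set 7 of 26 lin- and 3 of 32 lin+ cells had Malat1 under 100 ppm. The summed share of the 4 RNAs differed by -4.87 percentage points between lin+ and lin- cells in day 0 replicate 1. In the other sets this difference ran from -1.79 to 0.14. Both sets lay beyond Dixon's 95% limit for 7 values, a limit that chance passes in about 1 group in 20. The summed share here joins shares of reads in the first batch with shares of summed RPKM in the second. As shares of reads in both batches, the other sets ran from -1.79 to 0.83, and Dixon's limit was not applied to those values.

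RPKM values of 60 first-batch cells lie outside the deposited annotation and entered no comparison: 15 lin+ and 21 lin- cells of day 11, and 5 lin+ and 19 lin- cells of day 9. In them Malat1 had a median of 0.0426% of the summed RPKM, Rn45s 3.42% and Rn18s 0.934%. The 222 annotated cells of the batch had 0.0340%, 4.12% and 1.13%. The left-out cells had a median of 2796 genes detected, against 2376 in the annotated cells of the batch.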

How the results depend on the processing

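Malat1 kept its lower level in wounds under every alternative (22 of 22 in each lineage), with log2 fold changes of -3.08 to -1.43 in lin+ and -2.30 to -1.80 in lin- cells, and limma's call was lost in some. It was lost without the filter on low values (-2.57 and -2.03; adjusted p = 0.161 and 0.219), where more genes were tested. It was lost with no replicate block, that is without batch in the model (-2.57 and -2.03; adjusted p = 0.931 and 0.769), where differences between batches count as spread. DESeq2 on recovered reads gave -2.37 and -2.15, and cells with 1500 to 3000 genes gave -1.80 in lin- cells; the cause was not tested. Leaving out 1 mouse set in turn gave -3.08 to -2.07 in lin+ and -2.24 to -1.82 in lin- cells. Without all of replicate 1 the lin+ value moved to -2.11, and without all of replicate 2 with day 6 to -3.04; for Rn18s in lin- cells these were -0.75 and -1.64.

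Values near 0 turned in sign, and none of them was called under any alternative; the cause was not tested. With the mean of log2 values, the lin+ against lin- difference became -0.049 for Malat1 and 0.22 for Rn45s in unwounded skin, and 0.49 for Malat1, 0.15 for Neat1, 0.10 for Rn18s and 0.063 for Rn45s in wounds, and the lin- wound change of Neat1 became 0.54. From IFE-B cells they were 0.67 (Neat1) and 0.027 (Rn18s) in wounds and 0.066 (Rn45s) in unwounded skin. From cells with at least 1000 genes, Rn18s and Rn45s gave 0.031 and 0.022 in wounds and Rn45s 0.045 in unwounded skin, where at least 200 genes gave 0.0076, the cell total without the 4 RNAs 0.065 and 1500 to 3000 genes 0.15. From cells outside cluster 2 they were 0.030 (Rn18s, wounds) and 0.025 (Rn45s, unwounded). edgeR gave 0.051 and 0.085 for Rn18s and Rn45s in wounds and 0.022 for Rn45s in unwounded skin, and DESeq2 0.017, 0.051 and 0.0064. The lin- wound change of Neat1 was 0.32 with 1500 to 3000 genes, 0.13 with edgeR and 0.20 with DESeq2. Without all of replicate 1 the unwounded differences were -0.10 (Malat1) and 0.12 (Rn45s), and without all of replicate 2 with day 6 those of Rn18s were -0.031 (unwounded) and 0.18 (wounds) and that of Rn45s in wounds 0.014.

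Leaving out 1 mouse set in turn, the unwounded lineage difference ran from -0.10 to 0.62 for Malat1, 0.23 to 1.327 for Neat1, -0.031 to 0.32 for Rn18s and -0.13 to 0.12 for Rn45s. In wounds it ran from -0.28 to 0.055 for Malat1, -0.22 to -0.021 for Neat1, -0.28 to 0.074 for Rn18s and -0.50 to -0.012 for Rn45s. In lin- cells the wound change of Neat1 ran from -0.63 to 0.14 and that of Rn18s from -1.59 to -0.80. The log2 ratio of Malat1 to Neat1 ran from -0.59 to 0.29 and that of Rn18s to Rn45s from -0.046 to 0.039; from means over cells they were -0.028 and 0.052. The summed share differed by -0.861 points in cells with at least 1000 genes (exact permutation p = 0.0469, adjusted p = 0.1875 over 4 values), with a leave-one-out range of -1.29 to -0.453.

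The number of genes called by limma varied widely, from 10 in the lin+ and 20 in the lin- wound comparison and 43 and 28 in the lineage comparisons of unwounded skin and wounds. Leaving out 1 mouse set gave 0 to 336, 0 to 217, 14 to 486 and 8 to 35. With 10 added they were 1, 12 and 4 (unwounded), with no filter 1, 9, 16 and 4, and with the mean of log2 values 1492, 1787, 21 and 189. Cells with 1500 to 3000 genes gave 1, 0, 0 and 6, and IFE-B cells 10 in lin-, 6 (unwounded) and 0 (wounds). Cells with at least 1000 genes gave 3 in lin-, cells outside cluster 2 gave 93 and 16 for the lineages, and no replicate block gave 0 and 0 for wounding. edgeR gave 2, 3, 16 and 2, and DESeq2 821, 984, 1885 and 500. Without all of replicate 1 the unwounded lineage count was 284, and without all of replicate 2 with day 6 the count in wounds was 2. At an unadjusted limma p under 0.05, 1067 and 1352 genes passed in the wound comparisons and 1596 and 740 in the lineage comparisons.

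With 2 mice a day and lineage in the wound comparison, and day 0 skin from mice that also gave wounds, the p-values rest on 5 residual degrees of freedom, to which the limma prior adds for a total of 12.7 in those comparisons. Neat1 was at 0 in most cells and its set means rest on few of them.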
